A study of Mus musculus with 8 samples.

Results

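Acyl-CoA thioesterases are the enzymes that cut acyl-CoA esters into a free fatty acid and coenzyme A. The 9 mouse genes described here are Acot1, Acot2, Acot3, Acot4, Acot7, Acot8, Acot9, Acot12 and Acot13. Their probes were found by matching the accession of each non-control probe to the RefSeq gene table: 11 of the 55681 distinct probes, and 9 of the 20284 genes that a probe named. Acot3 and Acot8 each had a pair of probes, and every other gene had 1. Earlier results from these arrays had shown Acot3 and Acot2 lower in the fasted adult knockout liver, and the family was taken up for that reason. The adult genotype values below are therefore a description and carry no test.

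By hydrolysing an activated fatty acid, a thioesterase works against the acyl-CoA synthetases and returns coenzyme A to the pool of its compartment. The type I enzymes Acot1 to Acot6 are close relatives encoded side by side, and they sit in the cytosol (Acot1), the mitochondrial matrix (Acot2) or the peroxisome (Acot3, Acot4, Acot5 and Acot6). The type II enzymes Acot7, Acot8, Acot9, Acot12 and Acot13 are of other descent and share a hotdog fold. In liver, several type I genes are known to be induced by fasting and by ligands of the nuclear receptor PPAR-alpha, when fatty acid oxidation is high.

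The arrays held liver RNA from C57BL/6J mice of 4 groups. Adult males aged 10 weeks, wild type or lacking Btg2 (named TIS21 in the labels, a gene of the antiproliferative BTG/TOB family), had all gone 20 h without food. Fetal livers of embryonic day 13.5, wild type or Btg2 knockout, were pools of both sexes from more than 3 fetuses of a litter. Fed adults were not analysed here, so genotype was compared under fasting only. Each group was 1 RNA sample read on 2 arrays as technical duplicates, so all errors and p-values measure the spread between arrays and not between animals. The sources used here do not say how many adult mice each adult RNA came from. A level is given below as the processed signal divided by the 75th percentile of signal on its array, and levels are compared only within a probe.

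The Btg2 probe read 1.12 and 1.20 times the 75th percentile in adult wild type and 6.22 and 6.42 in fetal wild type, and it was not well above background on any of the 4 knockout arrays. It was at least 7.63-fold lower in adult knockout and at least 99.7-fold lower in fetal knockout, where a dim array was given the lowest signal of any well measured probe on it if that was higher. Between 38.5% and 61.1% of probes were well above background on an array, with a 75th percentile of 132 to 333 signal units, and duplicates correlated at r of 0.990 to 0.996 across probes. The summed level of 8 hepatocyte markers was 5343 to 5453 in adult wild type, 4803 to 4840 in adult knockout, 534 to 548 in fetal wild type and 516 to 528 in fetal knockout. Cps1 and Pck1 of this list were not well above background in fetal knockout. The summed level of 10 macrophage and Kupffer cell markers was 49.2 to 51.8 in adult wild type and 303 to 309 in adult knockout. In whole liver, fewer cells of a type and less RNA per cell cannot be told apart.

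Because 4 of the 9 genes lie in a single run on chromosome 12, the stretch before each of their starts is shown to set the members of this cluster side by side. RefSeq (assembly GRCm38.p6) held a start for 8 of the 9 genes, all but Acot13. The windows, all on the plus strand, are chr12:83987611-83987860 for Acot2, chr12:84009252-84009501 for Acot1, chr12:84038129-84038378 for Acot4 and chr12:84051894-84052143 for Acot3. Each holds the 250 bases before the start, 5′ to 3′, and capitals mark every match to the motifs searched for on both strands.
Acot2: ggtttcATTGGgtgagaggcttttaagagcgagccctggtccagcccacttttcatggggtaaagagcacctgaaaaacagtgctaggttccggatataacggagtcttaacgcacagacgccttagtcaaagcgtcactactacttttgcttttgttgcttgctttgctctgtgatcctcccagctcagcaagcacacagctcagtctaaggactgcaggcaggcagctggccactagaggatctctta
Acot1: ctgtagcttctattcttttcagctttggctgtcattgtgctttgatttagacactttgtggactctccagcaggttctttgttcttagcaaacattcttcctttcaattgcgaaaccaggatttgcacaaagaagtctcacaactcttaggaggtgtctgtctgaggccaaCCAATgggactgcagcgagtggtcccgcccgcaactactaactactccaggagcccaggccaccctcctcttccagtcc
Acot4: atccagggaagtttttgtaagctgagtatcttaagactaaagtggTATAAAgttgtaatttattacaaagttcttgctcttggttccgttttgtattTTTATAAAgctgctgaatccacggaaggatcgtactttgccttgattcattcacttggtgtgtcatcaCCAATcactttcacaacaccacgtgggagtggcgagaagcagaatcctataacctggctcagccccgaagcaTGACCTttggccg
Acot3: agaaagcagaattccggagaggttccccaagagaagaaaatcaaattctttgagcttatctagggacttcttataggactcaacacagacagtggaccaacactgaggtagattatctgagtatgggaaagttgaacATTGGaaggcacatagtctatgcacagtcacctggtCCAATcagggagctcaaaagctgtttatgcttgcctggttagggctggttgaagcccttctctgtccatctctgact
The motifs were AGGTCA (the nuclear receptor core motif), AGGTCANAGGTCA (its direct repeat with a spacer of 1 base, the form that PPAR-alpha with its partner RXR binds), TATAAA and CCAAT. All 4 windows held a CCAAT match, with its first base 244 bases before the start in Acot2, 79 in Acot1, 85 in Acot4 and 113 and 77 in Acot3. CCAAT was also found in 33.8% of all 32851 promoter windows of this length. Of the 4 windows, TATAAA stood only in that of Acot4, at 205, 153 and 151 bases before the start, the last pair overlapping. Among the other members it was found in Acot9, 141 bases before the start, and it was present in 12.4% of all windows. AGGTCA, too, occurred in the Acot4 window alone of the 4, as its reverse complement at 13 bases before the start. Acot5, in the same cluster but not among the 9, held it as its reverse complement at 224 bases before the start. Outside the cluster Acot12 held it, 110 bases before the start, and AGGTCA was present in 14.0% of all windows. The direct repeat was found in none of the 8 member windows and in 0.0335% of all windows. These matches describe letters in a short window and mark no binding site.

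Acot3, a peroxisomal enzyme for long-chain acyl-CoAs, was bright in a single group. Acot3 probe A (A_55_P2038347) read 19.4 and 18.4 in adult wild type, 0.495 and 0.631 in adult knockout, 0.621 and 0.634 in fetal wild type and 0.578 and 0.594 in fetal knockout. The adult wild-type arrays stood far above the other 6, and the adult knockout arrays overlapped those of both fetal groups. Adult knockout was lower than adult wild type by 5.08 ± 0.11 on the log2 scale (limma SE, 2 arrays a group), a 33.8-fold difference. With the normexp background correction it was lower by 4.22, so the fold depends on the background correction. Acot3 probe B (A_55_P2069907) read 4.52 and 4.19 in adult wild type, 0.149 and 0.250 in adult knockout, 0.122 and 0.0902 in fetal wild type and 0.0983 and 0.0794 in fetal knockout. The first adult knockout value was not well above background. On this probe adult knockout was lower by 4.50 ± 0.27, or by 2.77 with the normexp background correction, with the order of the groups changed: adult knockout stood above both fetal groups, which overlapped.

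The cytosolic member Acot1, which acts on long-chain acyl-CoAs, read 122 and 109.7 in adult wild type, 29.1 and 28.1 in adult knockout, 11.5 and 12.1 in fetal wild type and 10.6 and 10.6 in fetal knockout. No groups overlapped, and adult knockout lay between adult wild type and the fetal pools. The adult genotype difference was -2.01 ± 0.05, or 4.04-fold lower in knockout.

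Acot2 encodes the mitochondrial matrix enzyme for long-chain acyl-CoAs. Its probe read 1.48 and 1.43 in adult wild type, 0.216 and 0.228 in adult knockout, 0.234 and 0.252 in fetal wild type and 0.240 and 0.211 in fetal knockout. Only adult wild type stood apart. The fetal knockout arrays enclosed those of adult knockout and reached into the range of fetal wild type. Adult knockout was 6.56-fold below adult wild type, a log2 difference of -2.71 ± 0.12. This difference shrank to -1.61 with the normexp background correction.

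The peroxisomal succinyl-CoA thioesterase gene Acot4 read 11.4 on both adult wild-type arrays, 2.24 and 2.22 in adult knockout, 1.20 and 1.25 in fetal wild type and 1.15 and 1.41 in fetal knockout. Adult knockout again lay between adult wild type and the fetal arrays, whose genotypes overlapped. The adult genotype difference was -2.36 ± 0.09, a 5.12-fold lower level in knockout.

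Acot8, a peroxisomal type II enzyme of broad acyl-CoA range, was measured by 2 probes. Acot8 probe A (A_55_P2038414) read 25.2 and 23.7 in adult wild type, 9.73 and 10.4 in adult knockout, 5.28 and 5.10 in fetal wild type and 5.93 and 6.00 in fetal knockout. Acot8 probe B (A_55_P2038412) read 12.6 and 11.7, 6.56 and 6.41, 3.36 and 3.29, and 3.54 and 3.45 in the same order of groups. Both probes gave the same order, from adult wild type through adult knockout and fetal knockout to fetal wild type, with no overlap between groups. The adult genotype difference was -1.28 ± 0.05 on probe A, past 2-fold, and -0.91 ± 0.04 on probe B, short of it.

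The remaining type II genes differed less between the adult genotypes than Acot8 probe A. Acot12, whose enzyme hydrolyses acetyl-CoA in liver cytosol, read 39.3 and 39.8 in adult wild type, 20.6 and 21.6 in adult knockout, 0.409 and 0.429 in fetal wild type and 0.417 and 0.452 in fetal knockout. The adult genotypes were apart by -0.91 ± 0.05, and both stood far above the overlapping fetal groups. Acot13, a small thioesterase associated with mitochondria, read 110.8 and 111 in adult wild type, 89.6 and 93.1 in adult knockout, 31.9 and 32.2 in fetal wild type and 36.1 and 35.3 in fetal knockout. The adult difference was -0.28 ± 0.03, and no groups overlapped at this scaling. Over all settings this difference ran from -0.31 to -0.09, so its size depended on the processing.

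Acot9, a mitochondrial enzyme, ran the other way. It read 0.531 and 0.549 in adult wild type, 0.681 and 0.683 in adult knockout, 1.31 and 1.29 in fetal wild type and 1.28 on both fetal knockout arrays. The fetal groups were the highest, and adult knockout was above adult wild type by 0.34 ± 0.06. Acot7, a cytosolic enzyme best known from brain, read 10.6 and 9.88 in adult wild type, 10.4 and 10.97 in adult knockout, 9.06 and 9.28 in fetal wild type and 9.67 and 9.93 in fetal knockout. Its 8 values lay close together, the adult genotypes overlapped, and their difference was 0.06 ± 0.04.

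**Figure D1:**
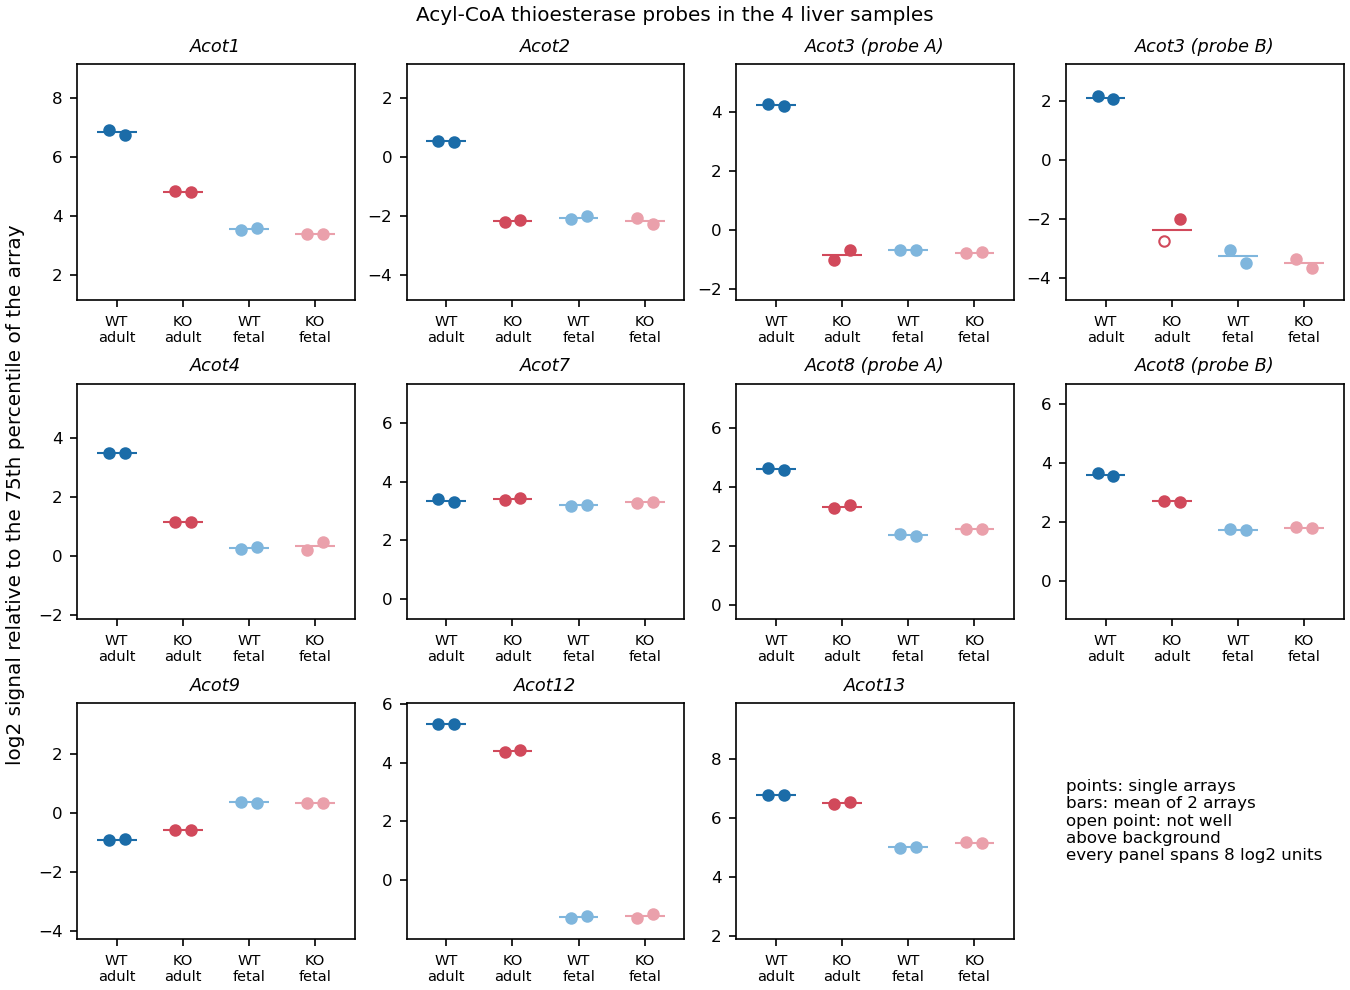
Level of each of the 11 thioesterase probes on the 8 arrays, as log2 of signal over the 75th percentile of the array, with points for arrays and bars for the mean of 2. The type I probes, Acot8, Acot12 and Acot13 stand highest in adult wild type, Acot7 is nearly level, and Acot9 is the only probe highest in the fetal groups.

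In the fasted adult genotype comparison 6 of the 11 probes were called lower in knockout: Acot1, Acot2, both Acot3 probes, Acot4 and Acot8 probe A. A call needed an adjusted p under 0.05 in limma and a difference of at least 2-fold. None was called higher. Of all 28819 probes tested, 6.91% were called in either direction and 2.99% lower, but the family was chosen from this contrast and nothing is read from the count. The member median was -1.28 against -0.12 over all probes tested. The 6 calls were made under every alternative that tested them, with Acot3 probe B left untested where a probe had to be well above background on all 8 arrays or where each gene kept 1 probe. Acot1 to Acot5 share stretches of coding sequence and probe sequences were not used here, so signal from a sister gene on a type I probe cannot be told apart from its own. The macrophage marker sum was higher in adult knockout, as given above, with all 10 of 10 macrophage markers called higher and Timd4 alone not well above background in wild type. The sum of 5 intestinal epithelium markers was 248 to 250 in adult wild type and 94.8 to 96.1 in adult knockout. Cdx1 and Cdx2 were not well above background in either, and Vil1 was not in wild type. Of the 3 intestinal markers tested, 1 was called higher in adult knockout and 2 lower. With normexp 2 were called lower and none higher. The sum of 5 adipocyte markers was 3.21 to 3.28 and 1.74 to 1.82, with 4 of the 5 (Adipoq, Lep, Plin1 and Retn) not well above background in wild type and 2 (Lep and Plin1) in knockout. The 8 hepatocyte markers had a median difference of -0.14 and none was called in this comparison. The part of any of these cell types in the thioesterase differences was not tested.

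Fetal liver gave the genotype comparison that the choice of genes had not used. No member probe was called, against 1.60% of all probes tested, and 3 of the 11 had an unadjusted p under 0.05. The largest difference was -0.25 ± 0.27, on Acot3 probe B (adjusted p = 0.596, limma). Acot13 was higher in fetal knockout by 0.16 ± 0.03 (adjusted p = 0.0119, limma), with both knockout arrays above both wild-type arrays. Acot8 probe A was higher by 0.20 ± 0.05 (adjusted p = 0.0252, limma), also without overlap, while Acot8 probe B differed by 0.07 ± 0.04 (adjusted p = 0.293, limma). Over all settings run the adjusted p ranged from 0.00748 to 0.9999 for Acot13 and from 0.0147 to 0.9999 for Acot8 probe A. All 3 differences were far under 2-fold.

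The type I genes that stood out in the adult liver showed small fetal differences. Acot1 differed by -0.16 ± 0.05 (adjusted p = 0.0753, limma), negative in all 18 alternatives and under an adjusted p of 0.05 in 7 of them (range 0.0105 to 0.9999). Acot2 differed by -0.11 ± 0.12 (adjusted p = 0.583, limma) and Acot3 probe A by -0.10 ± 0.11 (adjusted p = 0.588, limma). Acot4 differed by 0.05 ± 0.09 (adjusted p = 0.744, limma). Acot7 gave 0.09 ± 0.04 (adjusted p = 0.193, limma), Acot9 -0.02 ± 0.06 (adjusted p = 0.891, limma) and Acot12 0.05 ± 0.05 (adjusted p = 0.542, limma). The member median was 0.05, beside 0.04 over all probes. The interaction term, the adult genotype difference minus the fetal one, was negative for 10 of the 11 probes. It was called for 6, the 6 called in the adult and all negative, beside 9.59% of all probes called for this term and 4.67% in this direction. The term holds the adult contrast and is a description too. Heart muscle markers summed to 99.1 to 99.4 in the fetal wild-type pool and 239.6 to 240.3 in the fetal knockout pool, with all 5 genes well above background in both. The part of such tissue in these values was not tested.

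**Figure D2:**
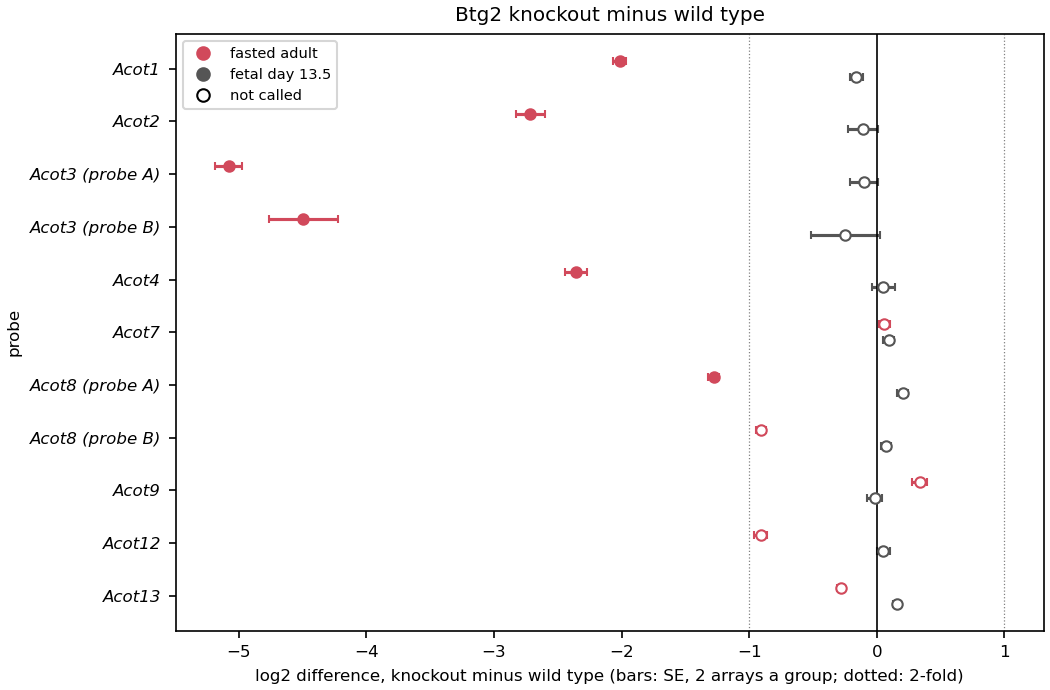
Knockout minus wild type for each thioesterase probe, as log2 difference with SE (2 arrays a group), in fasted adult and fetal liver; filled points were called. The adult differences reach -5.08 on Acot3 probe A, while every fetal point lies between -0.25 and 0.20.

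Comparing stages within a genotype shows the same arrays from another side, since it shares the adult arrays with the comparison that led to the choice. These differences therefore carry no p. In wild type, 9 member probes were called higher in the fasted adult and 1 lower. Of all probes tested, 52.6% were called, 28.8% higher and 23.7% lower. Acot12 had the widest difference, 6.56 ± 0.05, followed by Acot3 with 5.38 ± 0.27 on probe B and 4.91 ± 0.11 on probe A. Acot1 was higher in the adult by 3.29 ± 0.05, Acot4 by 3.22 ± 0.09 and Acot2 by 2.58 ± 0.12. Acot8 was higher by 2.24 ± 0.05 on probe A and 1.87 ± 0.04 on probe B, and Acot13 by 1.79 ± 0.03. Acot9 was the probe called lower in the adult, at -1.27 ± 0.06. Acot7 differed by 0.16 ± 0.04, a direction that turned under other scalings, down to -0.47.

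In the knockout, only 4 member probes were called between stages, all higher in the adult: Acot12, Acot1, Acot13 and Acot3 probe B. The share of all probes called between stages in the knockout was 49.5%, with 24.7% higher. Acot12 kept most of its stage difference, 5.60 ± 0.05, and Acot13 differed by 1.35 ± 0.03, a call lost with quantile (0.88), median (0.88) and deposited values (0.98). Acot1 differed by 1.43 ± 0.05, which is 43.6% of its wild-type stage difference on the log2 scale, and 0.96 with median scaling, short of a call. For Acot4 the difference was 0.81 ± 0.09, or 25.1% of that in wild type, and for Acot8 it was 0.76 ± 0.05 on probe A and 0.89 ± 0.04 on probe B. For Acot2 and Acot3 probe A it was -0.02 ± 0.12 and -0.07 ± 0.11. These near-zero values depended on the scaling: over all settings they ran from -0.49 to 0.26 for Acot2 and from -0.54 to 0.11 for Acot3 probe A, none of them called. Acot3 probe B differed by 1.13 ± 0.27, which was under 2-fold with every other scaling tried, with normexp and without the second array of either knockout group. Acot9 was lower in the adult by 0.91 ± 0.06, short of a call. The stages also differed in cell makeup: hepatocyte markers stood as given above, erythroid markers summed to 325 to 403 in the adult and 2295 to 2780 in the fetal groups, and 4 hepatoblast markers to 0.604 to 0.933 in the adult and 932 to 1049 in the fetal groups. Age, sex and the fast differed between the stages as well. The part of these and of cell makeup in the stage differences was not tested.

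**Figure D3:**
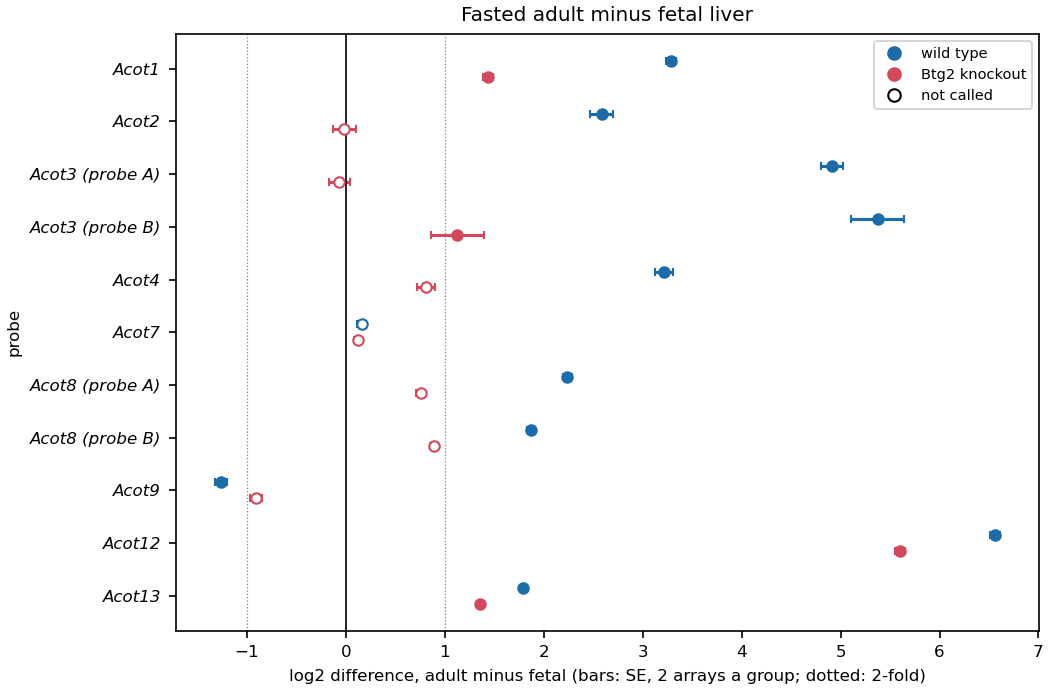
Fasted adult minus fetal liver for each thioesterase probe, as log2 difference with SE (2 arrays a group), in wild type and in Btg2 knockout; filled points were called. Knockout points lie to the left of wild-type points for every probe except Acot9, by only 0.04 for Acot7. Acot2 and Acot3 probe A are near 0 in knockout at this scaling, while Acot12 exceeds 5 in both genotypes.

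The type I cluster also holds genes that are not among the 9. In RefSeq order the run is Acot2, Acot1, Acot4, Acot3, Acot5 and Acot6. Acot5, a peroxisomal enzyme for medium-chain acyl-CoAs, read 6.03 and 5.82 in adult wild type, 0.954 and 0.900 in adult knockout, 0.403 and 0.362 in fetal wild type and 0.360 on both fetal knockout arrays. Its adult genotype difference was -2.68 ± 0.08 on this probe. A second Acot5 probe was too dim to be tested. It read 0.122 and 0.0886 in adult wild type and 0.158 and 0.0386 in adult knockout, with only the 0.158 well above background. Acot6 was not well above background on any adult array, so its adult difference has no measured level on either side. Before the run, Papln, Numb and Riox1 differed between the adult genotypes by -0.16 ± 0.31, -0.41 ± 0.10 and -0.17 ± 0.04. After it, Mideas differed by 0.05 ± 0.14, and Dnal1 and Pnma1 were too dim to be tested. None of these flanking genes was called in either genotype comparison. Cluster and flanking genes were drawn from the same contrast that led to the choice, so this pattern along the chromosome is a description.

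**Figure D4:**
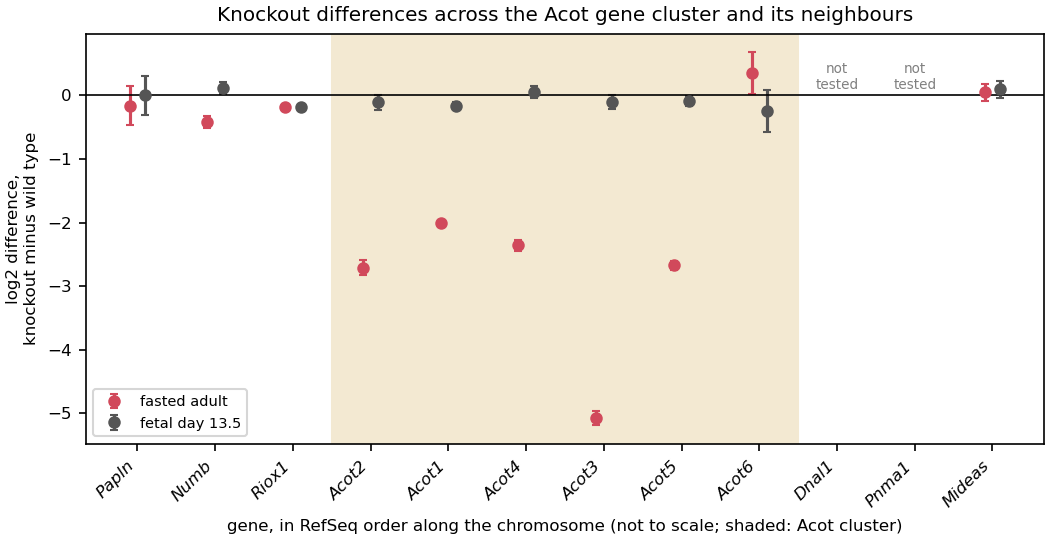
Knockout minus wild type (log2, with SE over 2 arrays a group) for the genes of the type I cluster on chromosome 12 (shaded) and the 3 nearest genes with a probe on each side, in RefSeq order and not to scale. Each gene is shown by its brightest probe. Acot2, Acot1, Acot4, Acot3 and Acot5 lie at -2.01 or below in the adult. The flanking genes and Acot6, which was not well above background in the adult, lie between -0.41 and 0.35.

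Other thioesterases than the 9 members were described together. Of 12 measured genes in a list of such enzymes and their relatives, with Acot5 and Acot6 of the cluster among them, 1 was called higher in adult knockout and 2 lower, beside 7.37% of all genes called at 1 probe a gene. Nudt7, a peroxisomal hydrolase that cuts coenzyme A itself, was higher by 1.31 ± 0.03. Acnat2, a peroxisomal acyltransferase, was lower by 1.14 ± 0.24, a call that was lost with normexp, and Acot5 was the other gene called lower. Acot11, a thioesterase with a lipid-binding START domain, differed by 0.88 ± 0.10 and was not called. The list median was 0.06, against -0.10 over all genes. In fetal liver 2 genes of the list were called lower in knockout, beside 1.83% of all genes called in either direction. These were Acnat2 and Baat, a bile acid conjugating relative. Both were at or near background there, and neither was called with normexp.

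Enzymes that make acyl-CoA supply the substrate of the family. Of 18 measured acyl-CoA synthetases and fatty acid transport proteins, 2 were called lower in adult knockout and none higher, with a median of -0.03, beside 2.45% of all genes called lower. Slc27a1, a fatty acid transporter, was lower by 2.61 ± 0.09, and Acsl1, the main long-chain synthetase of liver, by 1.01 ± 0.06, a call that was lost with normexp. Of 9 measured genes of coenzyme A synthesis and turnover only Vnn1, the pantetheinase that recovers its precursor, was called, lower by 1.95 ± 0.05. The median of that list was -0.42.

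Most fatty acid oxidation genes had negative differences in adult knockout. In the main fit none was as large as the -2.01 of Acot1, the least changed of the 4 type I members. With normexp Acot2 was the least changed of the 4, at -1.61, and the peroxisomal gene Ehhadh passed it at -1.88. Of 21 mitochondrial genes, 20 had a negative difference and 4 were called lower, with a median of -0.81. Over all genes 58.6% had a negative difference and 2.45% were called lower. Hadhb, of the trifunctional protein, was lower by 1.12 ± 0.03, Decr1, a reductase for unsaturated acyl-CoAs, by 1.02 ± 0.06 and Cpt1a, the carnitine transferase of mitochondrial entry, by 1.00 ± 0.02. Cpt1b, its muscle form, was lower by 1.75 ± 0.24 but 1 of its 2 knockout values was not well above background. None of the 4 was called with normexp. Of 18 measured peroxisomal genes, 14 had a negative difference and 4 were called lower (3 with normexp, without Acaa1a), with a median of -0.69: Ehhadh, the bifunctional enzyme, by 1.97 ± 0.04, Pex11a, a peroxisome division factor, by 1.16 ± 0.03, Decr2 by 1.09 ± 0.04 and Acaa1a, a thiolase, by 1.07 ± 0.04.

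Among 26 genes comprising PPAR-alpha and known targets outside the other lists, 12 were called lower (10 with normexp) and none higher, beside 2.45% of all genes called lower, with a median of -0.79. Fgf21, a fasting hormone, was at least 31.7-fold lower, since it was not well above background in knockout. Cidec, a lipid droplet protein, was lower by 3.82 ± 0.13, the fatty acid hydroxylase gene Cyp4a14 by 3.59 ± 0.09 and Cyp4a32, whose probe may read near-identical relatives, by 2.45 ± 0.10. Ppara itself differed by -0.73 ± 0.05 and was not called. In fetal liver no gene of the synthetase, coenzyme A, oxidation or PPAR-alpha lists was called in the genotype comparison, beside 1.83% of all genes. Between stages in wild type, 21 of 21 mitochondrial, 17 of 18 peroxisomal and 24 of 26 PPAR-alpha list genes were called higher in the adult, beside 27.3% of all genes. In the knockout these counts were 20, 18 and 24, beside 25.7%, and the 24 include Fgf21, which was not well above background in either knockout group. Acot2 and Acot3 probe A were not called in that comparison. All lists were chosen with adult results known, and they are described by counts alone.

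**Figure D5:**
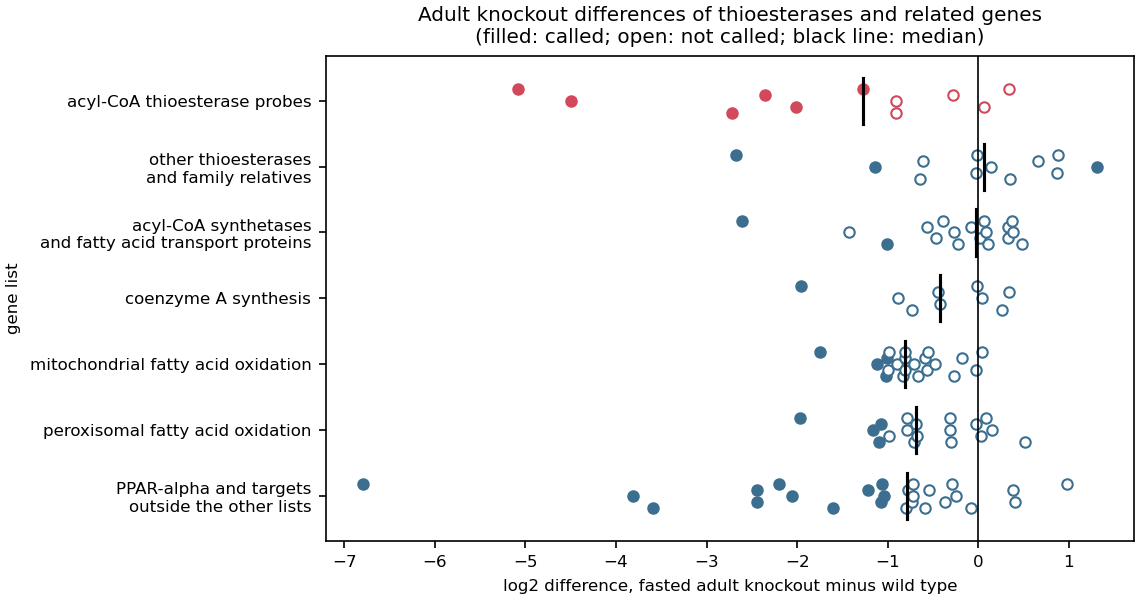
Adult knockout minus wild type (log2) for the 11 thioesterase probes and for the measured genes of 6 related lists, 1 probe a gene; filled points were called and black lines are medians. Acot3 lies at -5.08 and -4.50, left of every related gene except Fgf21, which is plotted at its measured difference although it was dim in knockout.

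The genes whose pattern was most like that of Acot3 probe A were sought among 28813 probes, by the root mean square (RMS) difference over the 8 arrays after centring each probe on the mean of its 4 groups. The 8 arrays stand for 4 RNA samples, so likeness rests mainly on how far adult wild type stood above the other groups. Acot3 probe B differed from probe A by an RMS of 0.50. The nearest gene outside the 9 members was Kiss1, which encodes the peptide kisspeptin, at 0.43, with an adult genotype difference of -4.01 ± 0.23. Cidea followed at 0.63, then Lamb3, a laminin chain, at 0.71 with -3.15 ± 0.19, and then Esr1 and 2310001K24Rik, both at 0.84. Of these 5 genes, Cidea, Esr1 and 2310001K24Rik were not well above background on either adult knockout array. Among the 9 members Acot4 was next at 0.99, then Acot2 at 1.02 and Acot1 at 1.09. Acot8 stood at 1.43 and 1.57, Acot13 at 1.75, Acot7 at 2.15, Acot12 at 2.35 and Acot9 at 2.60. On this measure the 3 other cluster genes among the 9 members were nearer to Acot3 than any type II member. This order is a description, since the measure draws on the adult arrays that led to the choice. The measure is also not scaled for the size of a difference. Acot5 and Acot6 were searched among the genes outside the 9 and were not among the nearest 5. Their RMS values were not listed, so this does not set Acot5 further from Acot3 than Acot4, Acot2 or Acot1. Its adult genotype difference was -2.68 ± 0.08 and its wild-type stage difference 3.96 ± 0.08.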

How the data were processed

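The 8 deposited scanner tables held 1-colour Cy3 arrays made from 200 ng of RNA each, per the labels' protocols. Per the file headers, Agilent Feature Extraction 10.7.3.1 produced each processed signal, a background-subtracted intensity on a linear scale, and all arrays shared 1 slide and 1 scan. Levels were log2 of that intensity minus the 75th percentile of the array. Outlier-flagged spots were left out and no spot was saturated. RefSeq (GRCm38.p6) served for names, gene order and promoter windows: 26762 probes had a symbol. A probe was tested if some group had both arrays well above background, which held for 28819 probes and for all 11 members. The fit used limma 3.58.1 in R 4.3.3 (eBayes with an intensity trend, 4 groups, 8 arrays) with Benjamini-Hochberg adjustment over all tested probes. Genes of related lists had 1 probe each, the brightest. On simulated data the procedure recovered 74% of changes of 1.5 on the log2 scale and 93% of changes of 3 in the fetal comparison of 28819 probes. Alternatives were normexp (offset 50), quantile, median and detected-probe scaling, the deposited value table, whose intensities have a median of 18.1 on every array and whose normalization the sources used here do not state, other probe filters, no trend, slide row as a covariate and leaving out each array. At most 4 called genes a related list were named, by size of the adult difference, and the 5 most like Acot3; Ppara, Acot11 and Baat were added after their values were seen. The number of arrays limits the precision. Members and lists were chosen with earlier results of these data known.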

Additional observations from a re-analysis of the deposited data

Results flagged for a closer look

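For 6 thioesterase probes the knockout difference was not the same in adult and fetal liver by the interaction term of the limma fit. For the 6 called probes the adult difference minus the fetal one was -1.85 for Acot1, -2.60 for Acot2 and -4.98 for Acot3 probe A. It was -4.25 for Acot3 probe B, -2.41 for Acot4 and -1.48 for Acot8 probe A, on the log2 scale. Over all probes tested, 9.59% passed the same threshold and 4.67% in this direction. The term contains the adult comparison from which the family was chosen, so these values are a description. Both adult and fetal samples stood for 1 RNA preparation each. The age, the sex, the fast and the cell makeup differed together between them and cannot be told apart.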

How the results depend on the processing

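Counts of called member probes were the same under each alternative in the adult genotype comparison (6, or 5 of the 10 tested with the filter on all 8 arrays and 5 of the 9 with 1 probe a gene) and in the fetal one (0). The count between stages in the knockout was 4 as reported and 2 with quantile normalization, with median scaling and with the deposited value table. Leaving out single arrays gave 6 to 6 in the adult, 0 in the fetal and 10 in the wild-type stage comparison, 3 to 4 in the knockout stage comparison and 6 to 7 for the interaction. Among fetal genotype differences, none of them called, signs turned in 4: Acot3 probe B was 0.078 with normexp, Acot9 was 0.022 with median scaling, and without single arrays Acot4 ran from -0.096 (second fetal knockout array left out) to 0.20 and Acot12 from -0.0054 (the same) to 0.11. Uncalled differences also turned elsewhere: over the settings Acot7 ran from -0.47 to 0.21 between wild-type stages, from -0.35 to 0.16 between knockout stages and from -0.086 to 0.14 for the interaction. In the knockout stage comparison Acot13 was 0.88 with quantile and median scaling, and Acot1 was 0.96 with median scaling, while Acot9 was past 2-fold lower with median (-1.39) and detected-probe scaling (-1.17). In the wild-type stage comparison Acot9 was -0.93 with normexp. The cause of these changes was not tested. Over all probes, adult calls numbered 1991, against 548 with normexp and 838 with the filter on all 8 arrays, where fewer probes were tested. Fetal calls numbered 462, against 92 and 48 under those settings and 258 without the second fetal knockout array. Interaction calls numbered 2763, against 839 and 1362. Calls between stages in wild type numbered 15149, against 31710 with no filter and 9347 with the filter on all 8 arrays, and in knockout 14267, against 9366 with normexp, 28072 and 8751. The share of adult calls that were higher was 56.7%, against 72.0% with detected-probe scaling, 71.0% with median scaling and 45.4% when array 1 of adult wild type was left out (1287 higher, 1548 lower). For wild-type stages it was 54.9%, against 31.7% with median scaling. Median scaling moved the all-probe median from -0.12 to 0.07 in the adult comparison and from 0.14 to -0.49 between wild-type stages. Acot3 probe B lay near background outside adult wild type, which limits its adult fold: it was -2.77 with normexp. The labels number no replicates. With slide row as a covariate, which set the first arrays of the 4 groups against the second, the counts of called member probes were 6, 0, 10, 4 and 6, as reported. Each group lay in its own slide column, so column and group cannot be told apart.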
